A study of Mus musculus with 12 samples.

Results

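The genes described here are the 10 enzymes that carry tryptophan and vitamin B3 precursors into nicotinamide adenine dinucleotide (NAD) and that drain 1 branch of that route: Afmid, Kmo, Kynu, Haao, Acmsd, Qprt, Naprt, Nampt, Nadsyn1 and Nmnat1. They were taken by symbol from a table of 32047 genes counted in 12 mouse kidney libraries, and all 10 were found and passed the filter on low counts in every comparison. The study asked how an altered form of the phosphate hormone FGF23 affects the kidney in rhabdomyolysis, the breakdown of skeletal muscle whose released contents injure the kidney (acute kidney injury, AKI). The group AKI_A_FGF23_R176QR179Q, called the FGF23 variant group below, overexpressed the R176QR179Q form of FGF23 and received the injury 3 weeks later. The group AKI_A_mcherry is named for the same injury and for mCherry, a red fluorescent protein with no known part in these pathways. The group NC is not spelled out in the labels. It is used here as the uninjured reference, and neither an uninjured FGF23 variant group nor an uninjured mCherry group was analysed here. Each group had 4 libraries, and the labels give no strain, age, sex, vector, dose or interval between injury and sampling.

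In the de novo route the ring of tryptophan is opened and the product is passed along a chain. Afmid releases kynurenine, Kmo hydroxylates it, Kynu cleaves the hydroxylated form, and Haao opens the ring again. The unstable product of Haao either closes by itself to quinolinate, which Qprt turns into a mononucleotide that leads to NAD, or is decarboxylated by Acmsd and burned as fuel. Naprt feeds dietary nicotinic acid into the same late steps, Nmnat1 and Nadsyn1 complete the dinucleotide, and Nampt starts the salvage route that recycles nicotinamide. In the kidney the de novo enzymes are known chiefly from the proximal tubule, the segment that reabsorbs most of the filtrate.

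The 12 libraries held 55324078 to 70638283 counts each. Levels are given as CPM, counts brought to a common library size with trimmed-mean (TMM) factors over all 12 libraries. This corrects for depth and composition but not for gene length, so that CPM values are compared only within a gene. Fgf23 transcript stood at 6.12, 5.79, 7.28 and 4.49 CPM in replicates 1, 2, 3 and 5 of the FGF23 variant group and at 0 in every AKI_A_mcherry and NC library. Havcr1, which encodes the injury marker KIM-1, averaged 1049 ± 489 CPM in the FGF23 variant group, 2813 ± 746 CPM in AKI_A_mcherry and 3.27 ± 1.23 CPM in NC (SD, n = 4 each). Kl, which encodes the FGF23 co-receptor Klotho, averaged 246.5 ± 71.7 CPM in the FGF23 variant group, 110.3 ± 15.2 CPM in AKI_A_mcherry and 849.8 ± 180.0 CPM in NC (SD, n = 4 each). The labels name no batch and do not state whether each library is a different animal. The p-values therefore cover only the spread among the libraries at hand, part of which may be technical.

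The first comparison, AKI_A_mcherry against NC, asks how the route differed with injury; these groups also differ in mCherry, and the effects of injury and of mCherry cannot be told apart. Transcripts of 9 of the 10 enzymes fell, none rose, and Nmnat1 alone did not pass the test. The falls were deepest in the upper de novo chain and in the Acmsd branch, at 6.08-fold to 15.2-fold, and shallower for Qprt, Nampt, Naprt and Nadsyn1, at 1.56-fold to 2.03-fold. In this comparison 53.1% of the 18724 genes tested were called and 26.0% were called lower, so many genes outside the route fell too. The median log2 fold change was -1.81 over the 10 enzymes and -0.00 over all genes tested. In all 9 enzymes called lower, every AKI_A_mcherry library lay below every NC library, a separation in that direction that 26.0% of all genes tested showed.

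The second comparison, the FGF23 variant group against AKI_A_mcherry, asks what differed between the injured groups, a phrase that below always stands for the FGF23 variant group over AKI_A_mcherry. Acmsd, Kynu, Kmo, Haao and Nampt rose, 5 of 10 enzymes, and none fell. Of the 18824 genes tested here 23.1% were called and 11.7% were called higher. The median log2 fold change was 0.94 over the 10 enzymes and 0.01 over all genes tested. All 5 rising enzymes had every FGF23 variant library above every AKI_A_mcherry library, as did 14.5% of all genes tested. Qprt, Afmid, Naprt, Nadsyn1 and Nmnat1 overlapped between the injured groups and did not pass the test.

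The third comparison sets the FGF23 variant group against NC. These groups differ both in injury and in the FGF23 variant, and the effects of injury and of the variant cannot be told apart. Transcripts of 8 of the 10 enzymes were lower in the FGF23 variant group, none was higher, and Nampt and Kynu did not pass the test. Here 42.3% of the 19005 genes tested were called and 20.6% were called lower. The median log2 fold change was -0.68 over the 10 enzymes and 0.01 over all genes tested. Among the 8 called, 7 had groups that did not overlap, as did 21.1% of all genes tested in that direction, while Nmnat1 overlapped. The comparisons share libraries in pairs, so they are not independent of each other.

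**Figure D1:**
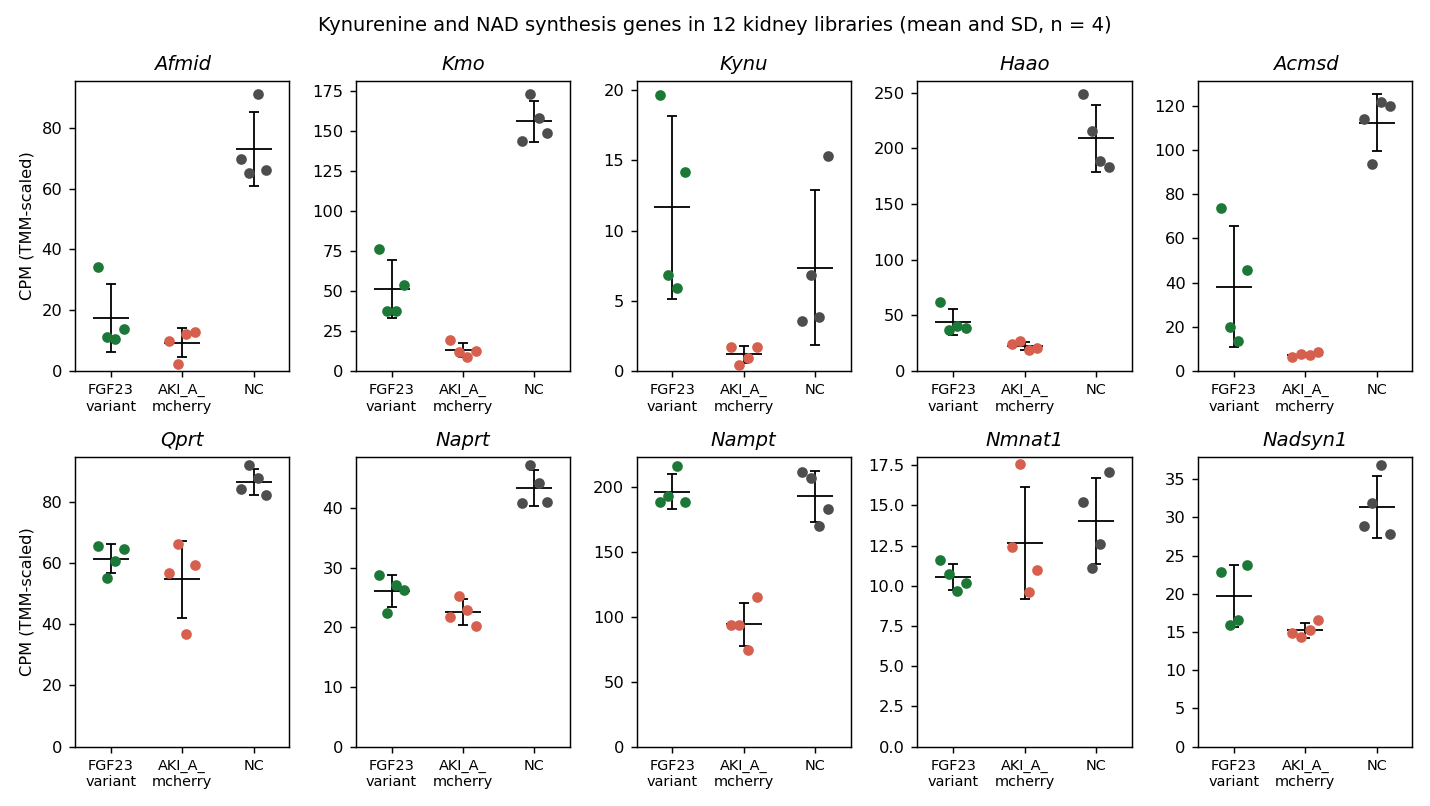
Level of each of the 10 enzymes in every library, in CPM on a linear axis from 0, with the FGF23 variant group on the left, AKI_A_mcherry in the middle and NC on the right; points are libraries, long lines are group means and error bars are SD (n = 4). Kmo, Haao and Acmsd form 3 separate steps, Nampt in the FGF23 variant group (188 to 216 CPM) overlaps NC (170.0 to 211 CPM), and Nmnat1 overlaps across the groups.

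Afmid (ENSMUSG00000017718), the formamidase that releases kynurenine, averaged 17.4 ± 11.4 CPM in the FGF23 variant group, 9.28 ± 4.75 CPM in AKI_A_mcherry and 73.0 ± 12.2 CPM in NC (SD, n = 4 each). It fell 7.76-fold in AKI_A_mcherry against NC (log2 fold change -2.96, SE 0.40, edgeR adjusted p = 0.000138). Afmid was 4.14-fold lower in the FGF23 variant group than in NC (log2 fold change -2.05, edgeR adjusted p = 0.000922). The difference between the injured groups was not called (log2 fold change 0.90, 95% interval -0.22 to 2.03, edgeR adjusted p = 0.222). In the GENCODE vM21 annotation, 44.2% of Afmid's exonic bases also belong to Gm20708 on the same strand, and the deposited counts divided unevenly between them. FGF23 variant replicate 1 held 2704 counts on Afmid and 11 on Gm20708, while AKI_A_mcherry replicate 2 held 119 on Afmid and 561 on Gm20708. Added together, the pair stood at 16.6 to 34.4 CPM in the FGF23 variant group, 12.7 to 19.8 CPM in AKI_A_mcherry and 81.3 to 112 CPM in NC. The sum, an alternative chosen after seeing the data, gave a log2 fold change of -2.58 for AKI_A_mcherry against NC (edgeR adjusted p = 7.58e-07) and 0.53 between the injured groups (edgeR adjusted p = 0.136). The sum was thus called where Afmid alone was called.

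Kmo (ENSMUSG00000039783), the kynurenine hydroxylase of the mitochondrial outer membrane, stood at 75.9, 37.2, 37.4 and 53.8 CPM in replicates 1, 2, 3 and 5 of the FGF23 variant group. It had 19.5, 11.5, 8.96 and 12.7 CPM in the 4 AKI_A_mcherry libraries and 144, 173, 158 and 149 CPM in the 4 NC libraries. The groups formed 3 steps with no overlap, and within the FGF23 variant group replicates 1 and 5 were higher than replicates 2 and 3. Kmo rose 3.89-fold in the FGF23 variant group against AKI_A_mcherry (log2 fold change 1.96, SE 0.28, edgeR adjusted p = 0.00186). It fell 11.7-fold in AKI_A_mcherry against NC (log2 fold change -3.55, SE 0.22, edgeR adjusted p = 5.21e-07). Kmo was 3.01-fold lower in the FGF23 variant group than in NC (edgeR adjusted p = 0.00018).

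Kynu (ENSMUSG00000026866), the kynureninase that cleaves the hydroxylated intermediate, had its lowest values in AKI_A_mcherry. It reached 19.7, 6.84, 5.93 and 14.2 CPM in the FGF23 variant group, against 1.68, 0.44, 0.918 and 1.71 CPM in AKI_A_mcherry. In NC it stood at 3.53, 6.83, 3.81 and 15.3 CPM, with replicate 4 far above the others. Every FGF23 variant library exceeded every AKI_A_mcherry library, while the FGF23 variant group and NC overlapped. The rise between the injured groups was 9.76-fold, the largest fold among the 10 enzymes (log2 fold change 3.29, SE 0.50, 95% interval 2.17 to 4.40, edgeR adjusted p = 0.00235). The fall in AKI_A_mcherry against NC was 6.08-fold (log2 fold change -2.60, SE 0.55, edgeR adjusted p = 0.00238), and without NC replicate 4 its log2 value was -1.97. The FGF23 variant group and NC did not differ by the test (log2 fold change 0.68, 95% interval -0.45 to 1.81, edgeR adjusted p = 0.315). Without NC replicate 4 that difference passed, at a log2 fold change of 1.32 (edgeR adjusted p = 0.0421), so 1 library decided the call.

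Haao (ENSMUSG00000000673), the dioxygenase that forms the branch-point intermediate, had 61.6, 36.5, 40.1 and 38.4 CPM in the FGF23 variant group. It stood at 24.3, 26.9, 18.4 and 20.8 CPM in AKI_A_mcherry and at 249, 216, 189 and 183 CPM in NC. The 3 groups did not overlap, and replicate 1 of the FGF23 variant group stood above the other 3 of its group. Haao rose 1.96-fold between the injured groups (log2 fold change 0.97, SE 0.18, edgeR adjusted p = 0.00588). It was 4.68-fold lower in the FGF23 variant group than in NC (log2 fold change -2.23, SE 0.18, edgeR adjusted p = 6.42e-06). In AKI_A_mcherry against NC it fell 9.12-fold (log2 fold change -3.19, SE 0.16, edgeR adjusted p = 1.3e-07).

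Acmsd (ENSMUSG00000026348), the decarboxylase that takes the same intermediate away from quinolinate and NAD, stood at 73.8, 19.9, 13.3 and 45.6 CPM in replicates 1, 2, 3 and 5 of the FGF23 variant group. It had 6.36, 7.41, 6.97 and 8.45 CPM in AKI_A_mcherry, and 114, 93.8, 122 and 120.0 CPM in NC. The groups did not overlap, but the FGF23 variant libraries spread 5.56-fold from the lowest to the highest, against 1.33-fold in AKI_A_mcherry and 1.30-fold in NC. Acmsd fell 15.2-fold in AKI_A_mcherry against NC, the deepest fall of the 10 enzymes (log2 fold change -3.92, SE 0.14, edgeR adjusted p = 3.6e-08). It rose 5.23-fold in the FGF23 variant group against AKI_A_mcherry (log2 fold change 2.39, SE 0.46, 95% interval 1.37 to 3.41, edgeR adjusted p = 0.00644). It was 2.90-fold lower in the FGF23 variant group than in NC (log2 fold change -1.54, SE 0.44, edgeR adjusted p = 0.0163). Without FGF23 variant replicate 1 the rise between the injured groups had a log2 value of 1.85 (edgeR adjusted p = 0.0126). Over replicates 1 to 3 alone the difference between the FGF23 variant group and NC did not pass, at a log2 fold change of -1.60 (edgeR adjusted p = 0.0606). In the annotation 3.32% of Acmsd's exonic bases lie opposite 2900009J06Rik, which averaged 0.0202 CPM in the FGF23 variant group, 0.0925 CPM in AKI_A_mcherry and 0.170 CPM in NC.

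Qprt (ENSMUSG00000030674), the phosphoribosyltransferase that commits quinolinate to NAD, had the smallest differences among the de novo enzymes. It had 65.8, 55.2, 60.7 and 64.5 CPM in the FGF23 variant group, 56.8, 66.2, 36.9 and 59.3 CPM in AKI_A_mcherry and 84.3, 92.1, 88.0 and 82.2 CPM in NC. The injured groups overlapped and both lay below NC, with replicate 3 the lowest of AKI_A_mcherry. Qprt fell 1.56-fold in AKI_A_mcherry against NC (log2 fold change -0.64, SE 0.16, edgeR adjusted p = 0.00711) and was 1.39-fold lower in the FGF23 variant group than in NC (log2 fold change -0.47, SE 0.083, edgeR adjusted p = 0.00103). Scaling by library totals alone, which moved the median gene by 0.34, left -0.14 for Qprt against NC (edgeR adjusted p = 0.204), and -0.49 relative to that median. Between the injured groups its log2 fold change was 0.17 with a 95% interval of -0.18 to 0.52 (edgeR adjusted p = 0.47).

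Because Acmsd and Qprt draw on the same intermediate, their length-scaled levels were set against each other within each library, using the deposited FPKM values (fragments corrected for gene length and for library total). The ratio of Acmsd to Qprt was 1.05, 0.338, 0.204 and 0.660 in the FGF23 variant group, 0.105, 0.104, 0.176 and 0.133 in AKI_A_mcherry, and 1.26, 0.952, 1.29 and 1.37 in NC. On the log2 scale it averaged -1.10 ± 1.04 in the FGF23 variant group, -2.98 ± 0.36 in AKI_A_mcherry and 0.27 ± 0.23 in NC (SD, n = 4 each). FGF23 variant replicate 1 reached the range of NC, and replicate 3 came close to the highest AKI_A_mcherry library. The ratio of Nampt to Qprt was 1.5, 1.83, 1.87 and 1.52 in the FGF23 variant group, 0.859, 0.739, 1.05 and 1.02 in AKI_A_mcherry, and 1.31, 1.18, 1.01 and 1.17 in NC. Here every FGF23 variant library lay above every library of the other groups, while AKI_A_mcherry and NC overlapped. Neither ratio was tested, and a ratio within a library shows unequal transcript levels, not flux.

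**Figure D2:**
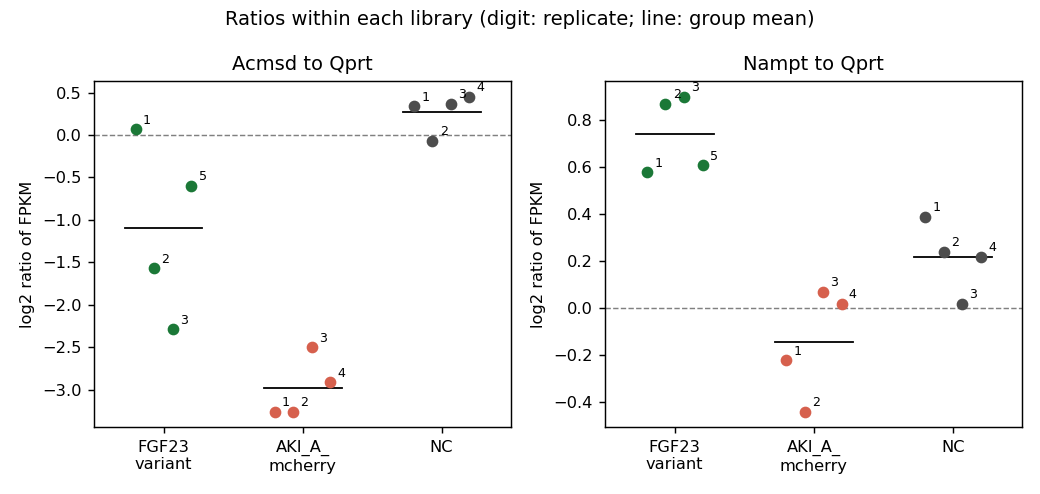
Log2 ratio of FPKM within each library, Acmsd to Qprt in the left panel and Nampt to Qprt in the right panel, with the FGF23 variant group, AKI_A_mcherry and NC from left to right; points are libraries with their replicate number, lines mark group means and the dashed line marks equal levels. The log2 Acmsd ratio in the FGF23 variant group spans -2.29 to 0.07, and the log2 Nampt ratio there, 0.58 to 0.90, lies above both other groups.

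Nampt (ENSMUSG00000020572), the rate-limiting enzyme of NAD salvage, had 188, 193, 216 and 188 CPM in the FGF23 variant group. AKI_A_mcherry libraries held 93.3, 93.5, 74.1 and 115 CPM, and NC libraries held 211, 207, 170.0 and 183 CPM. The FGF23 variant group overlapped NC, and both lay above every AKI_A_mcherry library. Nampt rose 2.09-fold in the FGF23 variant group against AKI_A_mcherry (log2 fold change 1.06, SE 0.13, edgeR adjusted p = 0.000848). In AKI_A_mcherry against NC it fell 2.02-fold (log2 fold change -1.02, SE 0.14, edgeR adjusted p = 0.000143). Against NC the FGF23 variant group differed by a log2 fold change of 0.04, with a 95% interval of -0.16 to 0.25 (edgeR adjusted p = 0.741). With scaling by library totals alone, the median gene of that comparison moved to a log2 fold change of 0.34 and Nampt to 0.38 (edgeR adjusted p = 0.0067), 0.03 above that median.

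The promoter sequence of Nampt is shown because Nampt starts the salvage route, was called in both comparisons with AKI_A_mcherry, and has a window with no annotated exon. It is the 250 bases before the gene start in RefSeq's GRCm38.p6 table, an older build than the GRCm39 of the counts, in lower case with CpG pairs in capitals, and lies at chr12:32820085-32820334 on the plus strand.
Nampt: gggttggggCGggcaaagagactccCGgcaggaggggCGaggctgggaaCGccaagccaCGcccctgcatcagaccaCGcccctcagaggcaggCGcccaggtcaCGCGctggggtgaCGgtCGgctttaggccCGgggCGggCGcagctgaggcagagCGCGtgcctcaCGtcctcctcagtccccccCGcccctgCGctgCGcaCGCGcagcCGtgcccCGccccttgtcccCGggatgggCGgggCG
The Nampt window held 27 CpG at 75.6% GC, and at least 27 CpG occurred in 8.56% of the promoters in the table. Windows were examined for 7 of the 10 enzymes, with 8 entries in all. Kmo held 5 CpG, Qprt 6, Haao 6, Afmid 15 and Nadsyn1 23, and the entries of Nmnat1 held 24 and 23. None of these 8 entries held GTTAAT followed by any base and ATT (HNF1), CAAAGTCCA (HNF4A), TGANTCA (AP-1) or CACGTG (E-box) on either strand, motifs that occurred in 0.371%, 0.384%, 6.75% and 6.02% of the 32851 promoters in the table. These counts say only which letters stand in these windows.

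Naprt (ENSMUSG00000022574), which starts NAD synthesis from nicotinic acid, ranged from 22.4 to 28.8 CPM in the FGF23 variant group, from 20.2 to 25.3 CPM in AKI_A_mcherry and from 40.9 to 47.3 CPM in NC. Both injured groups lay below NC and overlapped each other. Naprt fell 1.90-fold in AKI_A_mcherry against NC (log2 fold change -0.92, SE 0.10, edgeR adjusted p = 3.34e-05) and was 1.64-fold lower in the FGF23 variant group than in NC (log2 fold change -0.71, edgeR adjusted p = 0.000197). Between the injured groups the log2 fold change was 0.22, with a 95% interval of -0.03 to 0.46 (edgeR adjusted p = 0.184). In the annotation 11.8% of Naprt's exonic bases also belong to Eef1d on the same strand, a gene that averaged 99.4 ± 10.7 CPM in the FGF23 variant group, 153 ± 47.9 CPM in AKI_A_mcherry and 77.1 ± 4.82 CPM in NC (SD, n = 4 each). How reads were divided between them is not given in the sources used here.

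Nadsyn1 (ENSMUSG00000031090), the synthetase that amidates the acid dinucleotide to NAD, ranged from 15.9 to 23.7 CPM in the FGF23 variant group, from 14.3 to 16.6 CPM in AKI_A_mcherry and from 27.8 to 36.8 CPM in NC. It fell 2.03-fold in AKI_A_mcherry against NC (log2 fold change -1.02, SE 0.12, edgeR adjusted p = 4.03e-05). In the FGF23 variant group it was 1.57-fold lower than in NC (log2 fold change -0.65, SE 0.15, edgeR adjusted p = 0.00642). Under library totals alone that difference did not pass, at -0.31 (edgeR adjusted p = 0.121), and -0.66 relative to the median gene, which moved by 0.34. FGF23 variant replicates 1 and 5 exceeded every AKI_A_mcherry library and replicates 2 and 3 lay within their range. The log2 fold change between the injured groups was 0.38, with a 95% interval of 0.04 to 0.71 (edgeR adjusted p = 0.0947 over all genes).

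Nmnat1 (ENSMUSG00000028992), the nuclear adenylyltransferase that joins the parts of the dinucleotide, was the enzyme with the smallest difference in AKI_A_mcherry against NC. It ranged from 9.66 to 11.6 CPM in the FGF23 variant group, from 9.60 to 17.6 CPM in AKI_A_mcherry and from 11.1 to 17.1 CPM in NC. AKI_A_mcherry and NC differed by a log2 fold change of -0.13, with a 95% interval of -0.59 to 0.33 (edgeR adjusted p = 0.632). The FGF23 variant group was 1.31-fold lower than NC (log2 fold change -0.39, SE 0.14, edgeR adjusted p = 0.0475), although the groups overlapped. That call was lost in 6 of the 8 fits that left out a single library, all but those without FGF23 variant replicate 1 or NC replicate 2, and the adjusted p from edgeR reached 0.133. It was also lost with no filter on low counts (edgeR adjusted p = 0.0913) and with all 12 libraries in 1 fit (edgeR adjusted p = 0.0966). Library totals alone gave -0.06 (edgeR adjusted p = 0.755), but moved the median gene by 0.34, and relative to that median Nmnat1 had -0.40.

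**Figure D3:**
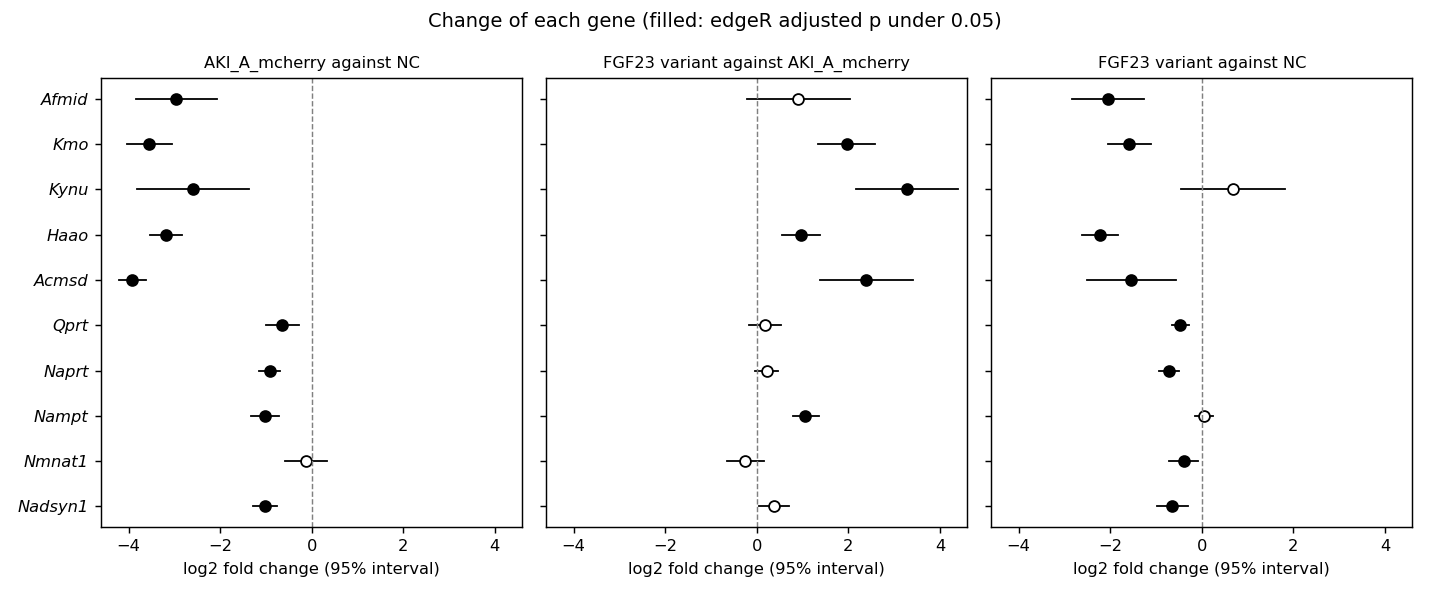
Log2 fold change of each enzyme with its 95% interval in the 3 comparisons, the FGF23 variant group or AKI_A_mcherry over its reference; filled points passed an adjusted p of 0.05 in edgeR over all genes tested. The left shift of the 9 called enzymes in AKI_A_mcherry against NC spans -3.92 to -0.64, and the right shift of the 5 called enzymes between the injured groups spans 0.97 to 3.29.

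Compared per length on the FPKM scale, the order of the enzymes differed between the groups. In the FGF23 variant group Nampt led at 40.6 ± 2.66 FPKM, with its range apart from Qprt at 24.3 ± 2.08 FPKM, and Acmsd, Naprt, Kmo and Haao followed at 14.1 to 9.85 FPKM with overlapping ranges. In AKI_A_mcherry Qprt (18.6 ± 3.74 FPKM) and Nampt (16.8 ± 3.28 FPKM) led and overlapped, and Acmsd stood ninth at 2.33 ± 0.325 FPKM. In NC the leading levels were Haao at 36.8 ± 5.34 FPKM, Acmsd at 32.6 ± 3.37 FPKM and Nampt at 31.4 ± 3.36 FPKM, whose ranges overlapped one another. Acmsd and Nampt also overlapped Kmo and Qprt in NC, and Haao overlapped neither. Kynu was last in all 3 groups, at 1.98 ± 1.12 FPKM in the FGF23 variant group, 0.175 ± 0.0929 FPKM in AKI_A_mcherry and 0.975 ± 0.715 FPKM in NC (SD, n = 4 each). Nmnat1 averaged 3.61 FPKM in the FGF23 variant group, 3.70 FPKM in AKI_A_mcherry and 3.78 FPKM in NC. FPKM values carry no TMM factor, so the FPKM of a single gene is not compared between groups here.

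Markers of the proximal tubule also differed between the groups. The summed level of 12 proximal tubule genes was 4639, 2193, 2564 and 4177 CPM in the FGF23 variant group, 2161, 1886, 1291 and 2017 CPM in AKI_A_mcherry, and 14290 to 18420 CPM in NC. All 12 fell in AKI_A_mcherry against NC (median log2 fold change -3.31), where 26.0% of all genes tested fell. Between the injured groups 7 of 12 rose (median 0.94) with none falling, against 11.7% of all genes tested that rose. All 12 were lower in the FGF23 variant group than in NC (median -1.94), against 20.6% of all genes tested. Nampt and Kynu were not called in that comparison. In these whole-kidney libraries fewer cells of a type and less RNA per cell cannot be told apart, and the part of proximal tubule content in the enzyme changes was not tested. Among the 10 enzymes, 8 were highest within the FGF23 variant group in replicate 1, the library with the most proximal tubule marker RNA. The exceptions were Nampt, highest in replicate 3, and Nadsyn1, highest in replicate 5. The share of all genes highest in replicate 1 was not counted. The lead of replicate 1 over the next library was small for Qprt (65.8 against 64.5 CPM) and Nmnat1 (11.6 against 10.7 CPM). Kmo and Qprt followed the order of the marker sum through all 4 libraries of the FGF23 variant group. In AKI_A_mcherry only 1 of the 10 enzymes was highest in the library with the top marker sum, and in NC 3 of 10 were. The spread from lowest to highest library in the FGF23 variant group was 3.32-fold for Kynu, 3.27-fold for Afmid, 2.04-fold for Kmo and 1.69-fold for Haao, and 1.15-fold to 1.49-fold for Nadsyn1, Naprt, Nmnat1, Qprt and Nampt.

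Set per 1000 CPM of the proximal marker sum, a scale chosen after the values were seen and given without a test, enzymes differed in which groups overlapped. The sum is weighted to abundant genes. Slc27a2 averaged 1402 CPM in the FGF23 variant group, 724.9 CPM in AKI_A_mcherry and 4581 CPM in NC. Slc34a1 averaged 486.5, 345.6 and 4663 CPM in the same order. A gene with steady CPM moves opposite to the sum on this scale. How many of all genes had groups that did not overlap on this scale was not counted. Whether FGF23 itself acted on genes in the sum was not tested. Kynu stood at 3.27 ± 0.799 CPM in the FGF23 variant group, 0.643 ± 0.279 CPM in AKI_A_mcherry and 0.438 ± 0.313 CPM in NC (SD, n = 4 each). Kmo stood at 15.2 ± 1.84 CPM in the FGF23 variant group, 7.09 ± 1.34 CPM in AKI_A_mcherry and 9.41 ± 0.949 CPM in NC (SD, n = 4 each). On that scale every FGF23 variant library exceeded every library of the other groups for both genes. Acmsd spanned 5.18 to 15.9 CPM in FGF23 variant libraries, 2.95 to 5.40 CPM in AKI_A_mcherry and 5.62 to 7.96 CPM in NC, so that the FGF23 variant group overlapped both others, which did not overlap each other. Haao spanned 9.18 to 16.6 CPM in FGF23 variant libraries, 10.3 to 14.3 CPM in AKI_A_mcherry and 10.3 to 17.4 CPM in NC, and all 3 groups overlapped. Nampt, known from many cell types, spanned 40.6 to 87.9 CPM in FGF23 variant libraries, 43.2 to 57.4 CPM in AKI_A_mcherry and 9.23 to 14.8 CPM in NC. There both injured groups lay above NC and overlapped each other. Qprt ran the other way between the injured groups, at 14.2 to 25.2 CPM in FGF23 variant libraries, 26.3 to 35.1 CPM in AKI_A_mcherry and 4.77 to 5.90 CPM in NC. Nmnat1 likewise spanned 2.43 to 4.87 CPM in FGF23 variant libraries, 5.45 to 9.31 CPM in AKI_A_mcherry and 0.663 to 1.07 CPM in NC, so that for both genes every FGF23 variant library lay below every AKI_A_mcherry library and above every NC library. Naprt averaged 8.33 ± 2.41 CPM in the FGF23 variant group, 12.8 ± 3.68 CPM in AKI_A_mcherry and 2.62 ± 0.262 CPM in NC (SD, n = 4 each). Nadsyn1 averaged 6.08 ± 1.01 CPM in the FGF23 variant group, 8.62 ± 2.20 CPM in AKI_A_mcherry and 1.89 ± 0.189 CPM in NC (SD, n = 4 each). For these 2 genes the injured groups overlapped and both lay above NC. Afmid averaged 4.95 ± 1.78 CPM in the FGF23 variant group, 5.37 ± 3.35 CPM in AKI_A_mcherry and 4.39 ± 0.602 CPM in NC (SD, n = 4 each), and all 3 groups overlapped.

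**Figure D4:**
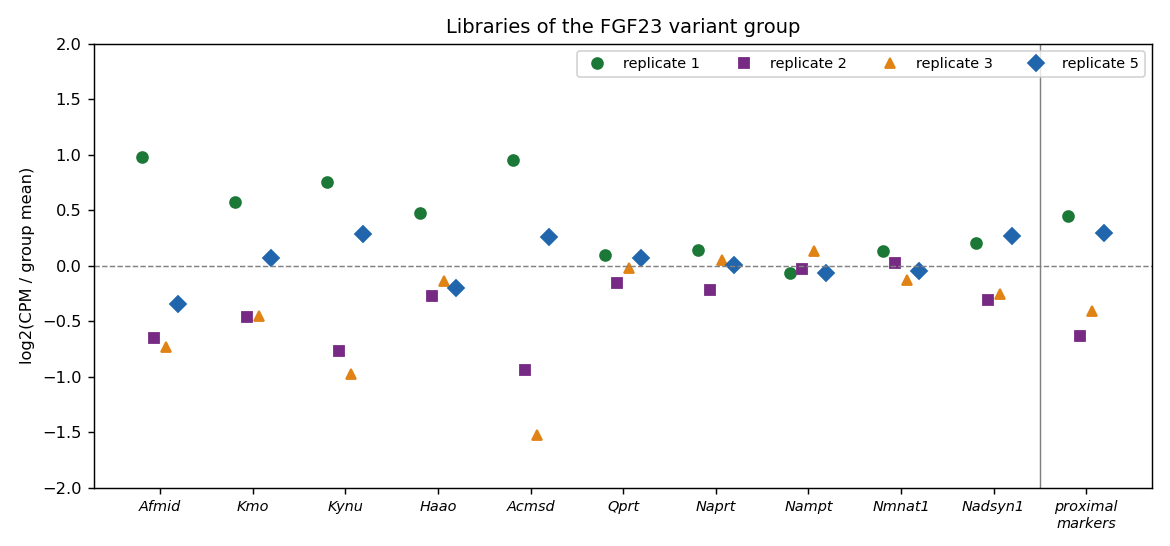
Log2 of the CPM of each enzyme in the 4 FGF23 variant libraries over the mean of that group, by replicate, with the summed CPM of 12 proximal tubule markers (2193 to 4639 CPM) in the last column. Acmsd, Kynu and Afmid have the widest spread, 3.27-fold to 5.56-fold, and Nampt and Qprt the narrowest, 1.15-fold and 1.19-fold.

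Markers of other cell types were examined beside these values. The summed level of 6 loop and distal tubule genes was 6026 to 8575 CPM in the FGF23 variant group, 3815 to 4311 CPM in AKI_A_mcherry and 7197 to 9413 CPM in NC. Of these 6 genes, 4 fell in AKI_A_mcherry against NC (median log2 fold change -0.73) and none rose, where 26.0% of all genes tested fell. Between the injured groups 4 of 6 were called higher (median 0.81) and none lower, against 11.7% of all genes tested that rose. In the FGF23 variant group against NC 2 of 6 were lower (median -0.12) and 0 higher, against 20.6% of all genes tested that were lower. Macrophages and monocytes can express Kmo, Kynu and Nampt. For 8 of their marker genes the summed level was 99.5 to 140.0 CPM in the FGF23 variant group, 109.2 to 259.5 CPM in AKI_A_mcherry and 134.3 to 188.3 CPM in NC. That sum joined genes that went opposite ways. In AKI_A_mcherry against NC 2 of 8 rose and 2 fell, against 27.2% and 26.0% of all genes tested. Between the injured groups 1 rose and 2 fell, against 11.7% and 11.4% of all genes tested. In the FGF23 variant group against NC 4 rose and 3 fell, against 21.7% and 20.6% of all genes tested. In AKI_A_mcherry against NC the lysosomal marker Cd68 rose 15.5-fold (edgeR adjusted p = 2.78e-06) and the integrin Itgam rose 5.94-fold (edgeR adjusted p = 0.000942), while the receptors Csf1r and Adgre1 fell 3.31-fold and 2.27-fold (edgeR adjusted p = 2.82e-06 and 0.0106). Between the injured groups Csf1r rose 1.54-fold (edgeR adjusted p = 0.0124), while Cd68 and the lysozyme gene Lyz2 fell 2.88-fold and 2.29-fold (edgeR adjusted p = 0.00439 and 0.0285). These 5 were named after their values were seen. For 6 neutrophil genes the summed level reached at most 6.34 CPM in the FGF23 variant group, 10.4 CPM in AKI_A_mcherry and 1.42 CPM in NC. For 6 lymphocyte genes it reached at most 3.79 CPM in any library, with Ms4a1 at 0 in AKI_A_mcherry. Of 8 liver genes, a tissue that shares the de novo route, the sum was 130.8 to 853.6 CPM in the FGF23 variant group, 387.4 to 1018 CPM in AKI_A_mcherry and 30.1 to 33.9 CPM in NC. That sum was carried by the fibrinogen genes: Fga averaged 368.2 CPM in the FGF23 variant group, 502.1 CPM in AKI_A_mcherry and 19.6 CPM in NC, whereas Alb averaged 3.81 CPM in the FGF23 variant group, 9.76 CPM in AKI_A_mcherry and 6.0 CPM in NC. For 5 skeletal muscle genes the sum was at most 1.37 CPM, with Tnnt3 at 0 in both injured groups and Tnnc2 at 0 in the FGF23 variant group. The part of these other cell types in the enzyme changes was not tested.

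Beyond the 10 enzymes, 56 genes of the pathway's surroundings were listed, of which 55 were found. Transcripts of 8 of the 53 tested rose and 27 fell in AKI_A_mcherry against NC, 22 rose and 5 fell in the FGF23 variant group against AKI_A_mcherry, and of 54 tested 9 were higher and 22 lower in the FGF23 variant group against NC. Over all genes tested 27.2% rose and 26.0% fell in AKI_A_mcherry against NC, 11.7% rose and 11.4% fell in the FGF23 variant group against AKI_A_mcherry, and 21.7% were higher and 20.6% lower in the FGF23 variant group against NC. The 22 that rose between the injured groups became 11 without FGF23 variant replicate 1, 13 without FGF23 variant replicate 5 and 8 over replicates 1 to 3 alone. The 5 that fell became 3 without FGF23 variant replicate 5, AKI_A_mcherry replicate 3 or the filter on low counts, and 2 without FGF23 variant replicate 2, over replicates 1 to 3 alone or with library totals alone. With library totals alone 18 were higher in the FGF23 variant group against NC. The median log2 fold change of the genes listed was -0.40 in AKI_A_mcherry against NC, 0.36 between the injured groups and -0.30 in the FGF23 variant group against NC.

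At the entry of tryptophan, 2 of 7 genes tested rose and 4 fell in AKI_A_mcherry against NC, where 27.2% and 26.0% of all genes tested did. Between the injured groups 5 rose, against 11.7% of all genes tested. That 5 became 2 without FGF23 variant replicate 1, 3 without FGF23 variant replicate 2 or 5, AKI_A_mcherry replicate 4 or the filter on low counts, and 1 over replicates 1 to 3 alone. Slc7a5, the light chain of the large neutral amino acid exchanger, stood at 27.7 ± 3.99 CPM in the FGF23 variant group, 27.9 ± 2.07 CPM in AKI_A_mcherry and 3.55 ± 0.249 CPM in NC (SD, n = 4 each). It rose in AKI_A_mcherry against NC (log2 fold change 2.99, edgeR adjusted p = 5.39e-08) and did not differ by the test between the injured groups (log2 fold change -0.01, 95% interval -0.27 to 0.25). Its heavy chain Slc3a2 rose in both comparisons, by 0.86 in AKI_A_mcherry against NC (edgeR adjusted p = 0.00098) and by 0.74 in the FGF23 variant group against AKI_A_mcherry (edgeR adjusted p = 0.0034) on the log2 scale. Slc6a19, the luminal neutral amino acid carrier of the proximal tubule, had log2 fold changes of -1.98 in AKI_A_mcherry against NC and 0.66 between the injured groups (edgeR adjusted p = 4.29e-05 and 0.0312), and the basolateral carrier Slc7a8 had -1.41 and 0.83 (edgeR adjusted p = 0.00198 and 0.0161). Ido2, a relative of the ring-opening dioxygenase, averaged 4.25 CPM in the FGF23 variant group, 1.69 CPM in AKI_A_mcherry and 12.8 CPM in NC, with log2 fold changes of -2.91 in AKI_A_mcherry against NC (edgeR adjusted p = 1.09e-05) and 1.34 between the injured groups (edgeR adjusted p = 0.0166). Tdo2 and Ido1, the main enzymes of that first step and named here after their values were seen, averaged at most 0.319 CPM and 0.116 CPM in any group.

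The transaminases turn kynurenine into kynurenic acid instead of passing it on. In AKI_A_mcherry against NC 3 of 4 fell, against 26.0% of all genes tested. Between the injured groups 2 of 4 rose, against 11.7% of all genes tested, or 1 over replicates 1 to 3 alone. Aadat averaged 88.1 ± 46.5 CPM in the FGF23 variant group, 23.0 ± 8.16 CPM in AKI_A_mcherry and 442.6 ± 69.9 CPM in NC (SD, n = 4 each). It fell 18.9-fold in AKI_A_mcherry against NC (edgeR adjusted p = 1.26e-06) and rose 3.83-fold in the FGF23 variant group against AKI_A_mcherry (edgeR adjusted p = 0.00635). Kyat3 had log2 fold changes of -1.45 in AKI_A_mcherry against NC (edgeR adjusted p = 6.92e-05) and 0.80 between the injured groups (edgeR adjusted p = 0.0125), and Kyat1 had -0.75 (edgeR adjusted p = 0.00638) and -0.03 (edgeR adjusted p = 0.934).

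Downstream of Acmsd, 5 of 5 genes of the oxidative branch fell in AKI_A_mcherry against NC, where 26.0% of all genes tested fell. Between the injured groups 3 of 5 rose, against 11.7% of all genes tested. In the FGF23 variant group 5 of 5 were lower than in NC, against 20.6% of all genes tested. The 3 became 0 without FGF23 variant replicate 1 or 5 and over replicates 1 to 3 alone, and 1 without FGF23 variant replicate 2 or 3, AKI_A_mcherry replicate 3 or 4 or the filter on low counts. Dhtkd1, which oxidises the ketoacid of this branch, had log2 fold changes of -3.76 in AKI_A_mcherry against NC (edgeR adjusted p = 2.18e-06) and 1.58 between the injured groups (edgeR adjusted p = 0.0173). Gcdh, the glutaryl-CoA dehydrogenase, had -2.22 and 0.45 (edgeR adjusted p = 3.23e-07 and 0.0421), and the hydratase Echs1 had -1.29 and 0.38 (edgeR adjusted p = 3.78e-06 and 0.0375). Hadh, the next dehydrogenase, fell by 1.96 on the log2 scale in AKI_A_mcherry against NC (edgeR adjusted p = 1.98e-06), and its value between the injured groups was 0.36 (edgeR adjusted p = 0.108). Aldh8a1, the remaining gene of this list and named after its values were seen, had -2.13 and 0.26 (edgeR adjusted p = 3.34e-05 and 0.547).

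Among other genes of NAD and NADP supply, 1 of 10 rose and 6 fell in AKI_A_mcherry against NC, where 27.2% and 26.0% of all genes tested did. Between the injured groups 3 rose and 3 fell, against 11.7% and 11.4% of all genes tested. Without AKI_A_mcherry replicate 3 the genes that rose against NC were 2, and with library totals alone 3 rose against NC and 1 fell between the injured groups. Slc5a8, a nicotinate carrier, averaged 69.9 ± 23.6 CPM in the FGF23 variant group, 18.7 ± 5.35 CPM in AKI_A_mcherry and 355.7 ± 42.5 CPM in NC (SD, n = 4 each). Slc22a13, another nicotinate carrier, averaged 48.8 ± 9.49 CPM in the FGF23 variant group, 23.96 ± 3.28 CPM in AKI_A_mcherry and 109.0 ± 15.5 CPM in NC (SD, n = 4 each). Between the injured groups Slc5a8 rose 3.74-fold (edgeR adjusted p = 0.00151) and Slc22a13 rose 2.04-fold (edgeR adjusted p = 0.0019). Nadk, the cytosolic NAD kinase, fell by 0.45 on the log2 scale between the injured groups (edgeR adjusted p = 0.00567), and the mitochondrial kinase Nadk2 fell by 1.34 in AKI_A_mcherry against NC (edgeR adjusted p = 4.46e-05).

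Of 16 genes of NAD consumption and nicotinamide clearance, 3 rose and 5 fell in AKI_A_mcherry against NC, and 3 rose and 2 fell between the injured groups. These counts lay near the shares over all genes tested, 27.2% and 26.0% in AKI_A_mcherry against NC and 11.7% and 11.4% between the injured groups. The 2 that fell between the injured groups became 0 without FGF23 variant replicate 2 and over replicates 1 to 3 alone, and 1 without FGF23 variant replicate 3 or 5 or AKI_A_mcherry replicate 2 or 3 and with no filter on low counts, a filter at a mean of 5 CPM, 1 fit of all 12 libraries or library totals alone. Library totals alone left 3 lower in AKI_A_mcherry against NC. Sirt3, the mitochondrial NAD-dependent deacetylase, averaged 27.3 ± 5.01 CPM in the FGF23 variant group, 14.6 ± 1.22 CPM in AKI_A_mcherry and 89.8 ± 7.99 CPM in NC (SD, n = 4 each). It fell 6.07-fold in AKI_A_mcherry against NC (edgeR adjusted p = 5.39e-08) and rose 1.88-fold between the injured groups (edgeR adjusted p = 0.00223). Parp2, which uses NAD in DNA repair, and Sirt6, a nuclear deacylase, rose by 0.64 and 0.78 on the log2 scale in AKI_A_mcherry against NC (edgeR adjusted p = 0.000913 and 0.000961), and had 0.04 and -0.09 between the injured groups. Nnmt, which methylates nicotinamide and so removes it from salvage, averaged 1.74 CPM in the FGF23 variant group, 3.74 CPM in AKI_A_mcherry and 0.709 CPM in NC, and its log2 fold change was -1.10 between the injured groups (edgeR adjusted p = 0.017). Aox3, an aldehyde oxidase, was at most 2.36 CPM in any library and at most 0.0701 CPM in AKI_A_mcherry, so its called rise between the injured groups (edgeR adjusted p = 0.00985) rests on few counts.

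Regulators and targets of the aryl hydrocarbon receptor, which binds kynurenine, were listed next. In AKI_A_mcherry against NC 2 of 11 rose and 4 fell, where 27.2% and 26.0% of all genes tested did. Between the injured groups 6 of 11 rose with none falling, against 11.7% and 11.4% of all genes tested. The 6 became 3 without FGF23 variant replicate 1 or 5 and 2 over replicates 1 to 3 alone, and the 2 that rose against NC became 1 without AKI_A_mcherry replicate 3, without NC replicate 2, 3 or 4 and under a filter at a mean of 5 CPM. Ppargc1a, whose coactivator is known to drive de novo NAD synthesis in the mouse kidney, averaged 44.5 ± 7.50 CPM in the FGF23 variant group, 17.9 ± 2.55 CPM in AKI_A_mcherry and 64.6 ± 3.74 CPM in NC (SD, n = 4 each). It fell 3.55-fold in AKI_A_mcherry against NC (edgeR adjusted p = 7.89e-07), rose 2.48-fold in the FGF23 variant group against AKI_A_mcherry (edgeR adjusted p = 0.000643) and was 1.43-fold lower in the FGF23 variant group than in NC (edgeR adjusted p = 0.00572). Ppara, a nuclear receptor of fat oxidation, fell by 2.32 on the log2 scale in AKI_A_mcherry against NC (edgeR adjusted p = 7.44e-05), and Hnf4a, a nuclear receptor of proximal tubule identity, fell by 2.20 (edgeR adjusted p = 8.26e-06). Ppara rose by 1.85 on the log2 scale between the injured groups (edgeR adjusted p = 0.00608), and Hnf4a rose by 0.83 (edgeR adjusted p = 0.0398). Of the receptor's target genes, Cyp1b1 rose by 1.21 between the injured groups (edgeR adjusted p = 0.013) with -0.20 in AKI_A_mcherry against NC. Nqo1 rose by 1.29 in AKI_A_mcherry against NC (edgeR adjusted p = 3.38e-05), with 0.00 between the injured groups and a 95% interval of -0.32 to 0.32.

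**Figure D5:**
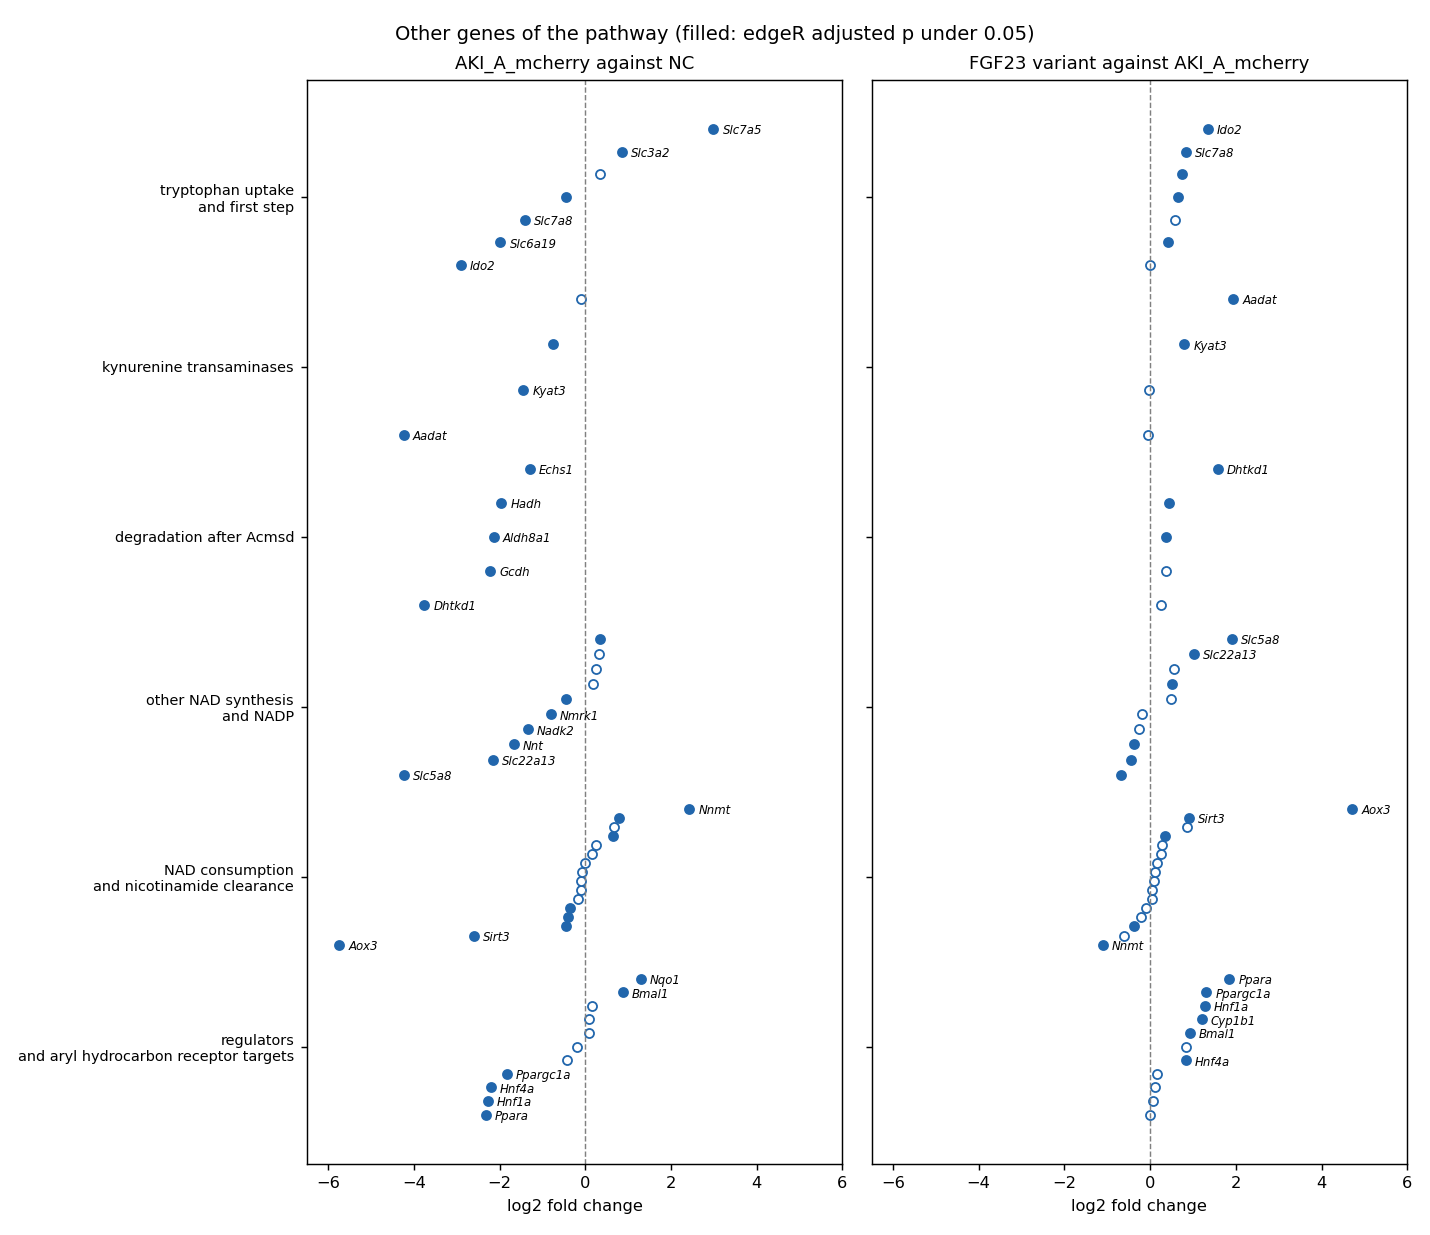
Log2 fold change of the tested genes around the pathway, grouped by role, in AKI_A_mcherry against NC (left) and in the FGF23 variant group against AKI_A_mcherry (right); filled points passed an adjusted p of 0.05 in edgeR over all genes tested. Most called points lie left of 0 in the left panel (27 lower, 8 higher) and right of 0 in the right panel (22 higher, 5 lower, and 11 higher, 4 lower without FGF23 variant replicate 1).

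Genes whose levels followed a given enzyme most closely were found among 11045 genes with a symbol and a mean of at least 5 CPM, by the root mean square difference of centred log2(CPM + 1) over the 12 libraries. For Acmsd these were Pvalb, Hlf and AI314278, at differences of 0.331, 0.376 and 0.377. Pvalb averaged 5.16 ± 4.49 CPM in the FGF23 variant group, 0.160 ± 0.128 CPM in AKI_A_mcherry and 15.3 ± 2.48 CPM in NC (SD, n = 4 each), and differences at values near 0 count for little on this scale. Hlf averaged 42.3 ± 15.5 CPM in the FGF23 variant group, 8.64 ± 1.68 CPM in AKI_A_mcherry and 132.8 ± 20.4 CPM in NC (SD, n = 4 each). For Qprt they were Ugp2, Gpd1l and Stard5, at 0.117, 0.132 and 0.135. For Nampt they were Lgr4, Adgra2 and Shmt1, at 0.174, 0.185 and 0.190, and Lgr4 averaged 122.1 ± 4.46 CPM in the FGF23 variant group, 63.5 ± 9.93 CPM in AKI_A_mcherry and 135.0 ± 12.4 CPM in NC (SD, n = 4 each).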

How the data were processed

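RNA was measured in 12 mouse kidney libraries, 4 per group by their titles. Per the labels' protocols, TRIzol RNA was poly(A)-selected and sequenced as strand-marked (dUTP) read pairs. Tools named in the submitters' processing notes are fastp, StringTie and edgeR, and the build is GRCm39. Not given in the sources used here are the aligner, the annotation and whether counting used strand. The authors deposited a count and an FPKM value per gene and library, per the file headers. FPKM served only to compare levels between genes, and the single-library files were not used.

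Among low deposited counts the value 4 was in excess (11995 entries) of 3 (5847 entries) and 5 (3638 entries), so a count may not be an independent molecule. The total per library, 55324078 to 70638283, gives the depth.

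Each comparison was fitted on its own 8 libraries over all genes with edgeR 4.0.16 in R 4.3.3 (TMM, filterByExpr, quasi-likelihood F test; p adjusted by Benjamini-Hochberg, threshold 0.05). The SE is the log2 fold change over the square root of F. FGF23 variant libraries had TMM factors of 1.12 to 1.15 over 12 libraries, AKI_A_mcherry libraries 0.903 to 1.02 and NC libraries 0.879 to 0.911. The code was tested on simulated data. A supplied annotation (GENCODE vM21) paired 31942 identifiers with a symbol and gave the overlaps. Where a symbol had more than 1 identifier, the identifier with more counts was used.

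The members and lists were chosen with earlier results of these data known. Named genes are the 10 enzymes, Fgf23, Havcr1, Kl, up to 3 genes per list with the smallest adjusted p in each of AKI_A_mcherry against NC and the FGF23 variant group against AKI_A_mcherry, and the 3 genes most like Acmsd, Qprt and Nampt. Alternatives were RLE factors, library totals alone, other filters, DESeq2 1.42.0, all 12 libraries in 1 fit, a replicate block and leaving out each library. Promoter windows were examined for 7 enzymes, and the others are not reported here.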

Additional observations from a re-analysis of the deposited data

Results flagged for a closer look

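Of 36 groups of 4 values checked (the 10 enzymes and the 2 ratios in 3 groups), 3 held a library far from the other 3, all in the FGF23 variant group. A rule of this kind flags some groups by chance alone. Haao stood at 61.6 CPM in replicate 1, against 36.5 to 40.1 CPM in the others. Afmid stood at 34.3 CPM in replicate 1, against 10.5 to 13.7 CPM in the others, and with Gm20708 counts added the values were 34.4 CPM against 16.6 to 22.4 CPM. Nampt stood at 216 CPM in replicate 3, against 188 to 193 CPM in the others. Replicate 1 also had the highest proximal tubule marker sum of the group, at 4639 CPM.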

How the results depend on the processing

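In AKI_A_mcherry against NC, all 159 enzyme values from the alternatives kept direction and call; a filter at a mean of 5 CPM left Kynu out. In the FGF23 variant group against AKI_A_mcherry 167 of 170 did. The exceptions were Acmsd under the replicate block (log2 fold change 1.94, edgeR adjusted p = 0.0607, range over its alternatives 9.38e-05 to 0.0607), and Naprt (0.43, adjusted p = 0.0182) and Nadsyn1 (0.58, adjusted p = 0.0267) under library totals alone, where the median gene moved by 0.21. In the FGF23 variant group against NC 152 of 170 did. Library totals alone moved the median gene by 0.34 and left 1 enzyme higher (Nampt) and 5 lower, without Qprt, Nadsyn1 and Nmnat1. Nampt changed sign without FGF23 variant replicate 3 (-0.0041, edgeR adjusted p = 0.98) and without NC replicate 3 (-0.01, edgeR adjusted p = 0.922), and its values without single libraries ran to 0.08. Without single libraries 0 to 1 enzymes were higher, the 1 being Kynu without NC replicate 4, and 7 to 8 lower. Acmsd lost its call over the shared numbers without a block (-1.60, edgeR adjusted p = 0.0606).

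Over all genes, library totals alone gave 4060 higher and 1035 lower in the FGF23 variant group against AKI_A_mcherry, and 7829 higher and 2096 lower against NC. Same-numbered libraries correlated at -0.148 to 0.114 over the 3 comparisons, and at 0.0641 to 0.114 in the FGF23 variant group against AKI_A_mcherry. The labels do not say that the numbers pair libraries, and the numbers were not taken to do so. The replicate block gave 944 higher and 766 lower against AKI_A_mcherry, and 2382 higher and 2333 lower against NC. The same libraries without a block gave 923 higher and 765 lower against AKI_A_mcherry, and 3258 higher and 3076 lower against NC. Against AKI_A_mcherry every FGF23 variant library with a shared number (3 of 3) correlated best with its own number, as did 2 of 3 AKI_A_mcherry libraries. Leaving out single libraries gave 1252 to 2088 higher and 1158 to 2171 lower against AKI_A_mcherry, lowest without FGF23 variant replicate 1; without replicate 5 the counts were 1439 and 1279, and without replicate 2 there were 1359 lower. The causes were not tested beyond the smaller number of libraries. Kynu, at 0.44 to 1.71 CPM in AKI_A_mcherry, is the enzyme most limited by depth.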
